A study of Mus musculus with 48 samples.

Results

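The subject of this report is the chromatin around 36 genes of glycolysis and of the cellular response to low oxygen in mouse CD8 T cells taken from tumours. A gene was represented by the open-chromatin peaks that overlapped its protein-coding body, or, outside any body, by peaks for which it was the nearest gene within 100.0 kb; where a peak lay in several genes, the gene with a boundary nearest the peak's middle took it. This rule gave 175 peaks of the 53868 in the series, 101 inside gene bodies and 74 outside, and all 36 genes had at least 1 peak. The counts ran from 1 peak (8 genes, among them Gapdh, Aldoa and Vhl) to 17 peaks each for Hif1a and Pfkfb3 and 13 for Bhlhe40. A peak outside a gene is listed under the nearest gene, and no measurement here links it to that gene's activity.

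The assay was ATAC-seq, which counts where the Tn5 transposase can insert adapters into accessible DNA. The cells were CD45.1 OT-1 CD8 T cells, specific for a peptide of ovalbumin through their transgenic receptor and expressing Cas9; each received a lentivirus with a guide RNA and an ametrine reporter, went into a host mouse 1 day before B16-OVA melanoma cells were inoculated, and was sorted from the tumour on day 15. The 48 libraries fell into 21 groups by host (aged or young; the labels used here give no age in weeks), guide (Zfp219, Dusp5 or OTC, the last being the reference in every guide comparison) and surface phenotype. Tprog cells were Slamf6+ Tim-3-, Ttran cells Slamf6+ Tim-3+, Tterm cells Slamf6- Tim-3+ and Ttad cells, sorted in aged hosts only, Slamf6- Tim-3-. Each aged group had 2 libraries, each young Tprog group 2, and each young Ttran or Tterm group 3. A library was a pool of 5000 to 50000 cells from several mice, and which mice went into which pool is not given in the sources used here, so p-values measure the spread between pools. All donor cells carried Cas9 and all had been transduced; the guide's target cannot be checked from these peaks, since a small edit need not change accessibility.

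Glycolysis converts glucose to pyruvate in the cytosol: carriers of the Slc2a family bring glucose in, hexokinases and phosphofructokinases commit it, and lactate dehydrogenase and the Slc16a carriers turn pyruvate into lactate and export it. HIF-1α (Hif1a) pairs with ARNT (Arnt) and binds the core sequence ACGTG or GCGTG at genes of this pathway and at targets such as Vegfa, Bnip3 and Ddit4; when oxygen is present, prolyl hydroxylases (Egln1, Egln3) mark HIF-1α for recognition by VHL and its destruction. Activated CD8 T cells lean on glycolysis, and tumours are often short of both oxygen and glucose. Accessibility is not expression, and none of the values below is an RNA level.

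Promoter sequences came from the RefSeq table for GRCm38.p6, which held 33 of the 36 genes; Slc2a3, Bhlhe40 and Bnip3l were not in it. Each entry spans 250 bases before to 50 after an annotated start. The letters ACGTG or GCGTG were present on either strand in 37 of the members' 48 windows, against 43.8% of all 32851 windows in the table. Among windows under a deposited peak they were present in 35 of 42 member windows, against 63.8% of 13674. Counted separately, ACGTG was present in 25 of the 48 windows (19.6% of all), GCGTG in 27 (32.4%) and CACGTG, which contains ACGTG on both strands, in 8 (7.15%). A window that held several of these was counted for each. The members were chosen as genes of this response, so this count describes the choice. A match is a string of letters, not a shown binding site. The next lines show 4 promoters whose peaks appear in the comparisons, 5′ to 3′ along the gene, with every match in capitals.

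Ldha, chr7:46845554-46845853, plus strand: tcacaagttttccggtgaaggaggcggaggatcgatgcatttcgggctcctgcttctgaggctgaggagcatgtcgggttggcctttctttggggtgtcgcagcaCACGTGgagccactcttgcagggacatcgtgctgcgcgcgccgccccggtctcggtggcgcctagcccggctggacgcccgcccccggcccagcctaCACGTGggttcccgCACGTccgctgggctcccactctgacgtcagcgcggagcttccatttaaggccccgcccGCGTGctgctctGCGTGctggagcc

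Gapdh, chr6:125165724-125166023, minus strand: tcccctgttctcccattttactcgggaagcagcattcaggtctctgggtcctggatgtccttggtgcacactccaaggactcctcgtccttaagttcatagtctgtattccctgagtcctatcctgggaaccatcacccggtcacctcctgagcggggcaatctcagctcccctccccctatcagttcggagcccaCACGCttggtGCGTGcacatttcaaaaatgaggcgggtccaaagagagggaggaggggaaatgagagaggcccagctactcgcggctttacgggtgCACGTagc

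Egln1, chr8:124949205-124949504, minus strand: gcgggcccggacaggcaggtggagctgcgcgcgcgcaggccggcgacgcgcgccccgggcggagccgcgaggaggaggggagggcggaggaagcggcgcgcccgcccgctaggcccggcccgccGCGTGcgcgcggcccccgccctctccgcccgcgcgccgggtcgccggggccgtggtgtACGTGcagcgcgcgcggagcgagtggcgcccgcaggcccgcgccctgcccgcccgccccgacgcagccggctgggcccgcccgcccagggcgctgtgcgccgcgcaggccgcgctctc

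Vegfa, chr17:46032328-46032627, minus strand: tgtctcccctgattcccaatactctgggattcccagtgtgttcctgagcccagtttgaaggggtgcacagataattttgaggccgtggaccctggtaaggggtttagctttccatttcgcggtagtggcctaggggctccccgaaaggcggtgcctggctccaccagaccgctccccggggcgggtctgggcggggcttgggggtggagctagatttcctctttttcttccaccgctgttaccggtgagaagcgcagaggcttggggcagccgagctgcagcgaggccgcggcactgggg

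The Ldha window, for lactate dehydrogenase A, held 7 matches, the most of any member window: 5 of ACGTG, with both strands of 2 CACGTG sites counted, and 2 of GCGTG. The Gapdh window held 3 and the Egln1 window 2. The window at this Vegfa start held 0, while the window at a second annotated Vegfa start, chr17:46025114-46025413, held 2; Vegfa encodes an angiogenic growth factor. No genome of the files' build was used here, so the sequences of the distal peaks that carry most of the differences below are not printed.

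Libraries held 5638413 to 29942755 reads in peaks (aged 5638413 to 16159054, young 6589023 to 29942755), and replicates correlated across peaks at r = 0.93 to 0.98. The T cell genes Cd3e, Cd8a and Cd8b1 had strong peaks in all groups. Peaks at Tcf7, Slamf6 and Id3, markers of progenitor cells, summed to 9460 to 11093 normalized reads in the 6 Tprog groups and to 4380 to 5625 in the 6 Tterm groups, and peaks at Havcr2 and Entpd1 to 3248 to 4420 in Tprog and 6361 to 7641 in Tterm, as the sort gates would place them. No peak was assigned to the B cell genes Cd79a and Ms4a1, to the myeloid genes Lyz2 and Csf1r, or to the melanoma genes Tyr and Dct; Itgam, which activated T cells also use, had 7 peaks (868 to 1560 summed reads), Pmel and Mlana 3 that lay outside their promoters, and Ncr1 1 weak peak. In pooled cells, fewer cells with an open site and less opening per cell cannot be told apart.

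The promoters of the members were open in every group and moved little. Of the 34 peaks over an annotated start, the strongest per kilobase were those of Pfkfb4, a kinase and phosphatase for fructose 2,6-bisphosphate (mean of 870.1 normalized reads per kb over all libraries), Aldoa, an aldolase (841), Hk1, a hexokinase (753), and Pfkl, a phosphofructokinase (729). The weakest were those of Bhlhe41 (51.8), Ldhb (101) and Pfkm (117). The Hk1 peak also covered the start of the antisense gene Hk1os, and ATAC-seq cannot divide the signal between them. A peak's range was taken as the log2 distance between its highest and lowest group means over all 21 groups. Among peaks with a mean of at least 20 normalized reads, the median range was 0.43 at the 34 promoter peaks and 1.25 at the 125 others; over all genes it was 0.58 and 1.33. Weak peaks vary more by counting alone, so strong ones are the fairer set: at a mean of at least 300 reads, 27 member promoter peaks had a median range of 0.40 and 32 other member peaks one of 0.68, against 0.50 and 0.69 for all genes. Members thus differed little from the rest of the series in this respect.

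**Figure D1:**
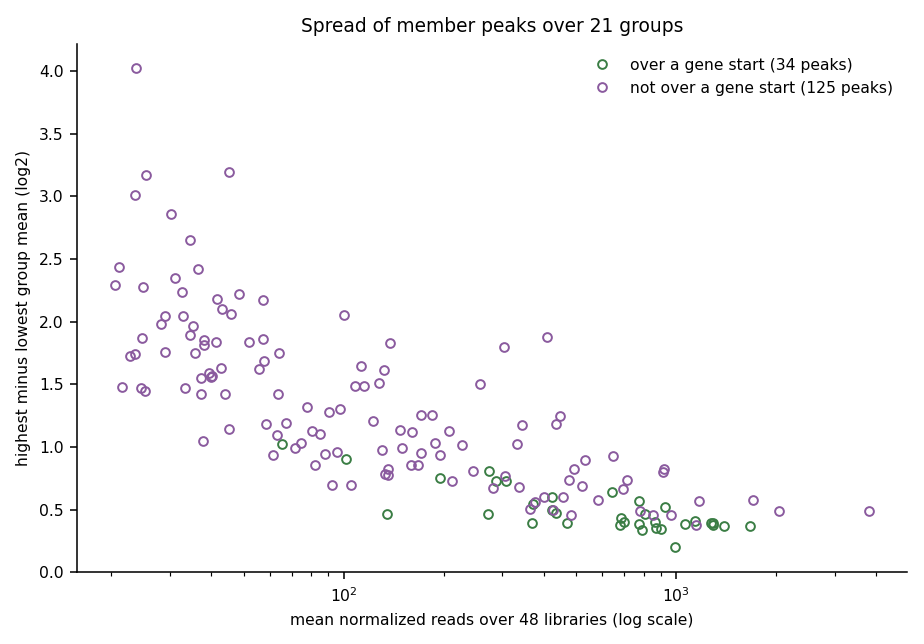
Each point is a member peak with a mean of at least 20 normalized reads; the horizontal axis is the mean over 48 libraries (log scale) and the vertical axis the log2 distance between the highest and lowest of 21 group means. The 34 promoter peaks lie low (median 0.43) and the 125 others higher (median 1.25), and the range falls as the mean rises in both.

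Each gene's strongest peak, called its lead peak here, was a promoter peak for 28 of the 33 genes with a start in the promoter table. Peaks of Slc2a3, Bhlhe40 and Bnip3l could not be classed and are counted here with the peaks that are not at promoters. The genes without a promoter lead peak included the glucose carriers, with Slc2a1 led by a peak 17.5 kb inside the gene (chr4:119124903-119127678, mean 1703) and Slc2a3 by one 7.88 kb outside it (chr6:122810244-122811978, mean 2047), and Hif1a, led by a peak 58.2 kb from its body (mean 1146). The strongest of all was the Bhlhe40 lead peak (chr6:108658092-108661667, mean 3822), which overlaps the body of this basic helix-loop-helix repressor and covers its annotated boundary at 108660629. Group means of the lead peaks spanned 1.19 on the log2 scale at Egln3, 0.98 at Bhlhe41, 0.90 at Ldhb and 0.81 at Vegfa, and, least among the 36 lead peaks, 0.34 at Pfkfb4 and 0.36 at Eno1. The Egln3 lead peak (chr12:54292758-54294108) is 88.9 kb from that gene and differed by cell state.

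**Figure D2:**
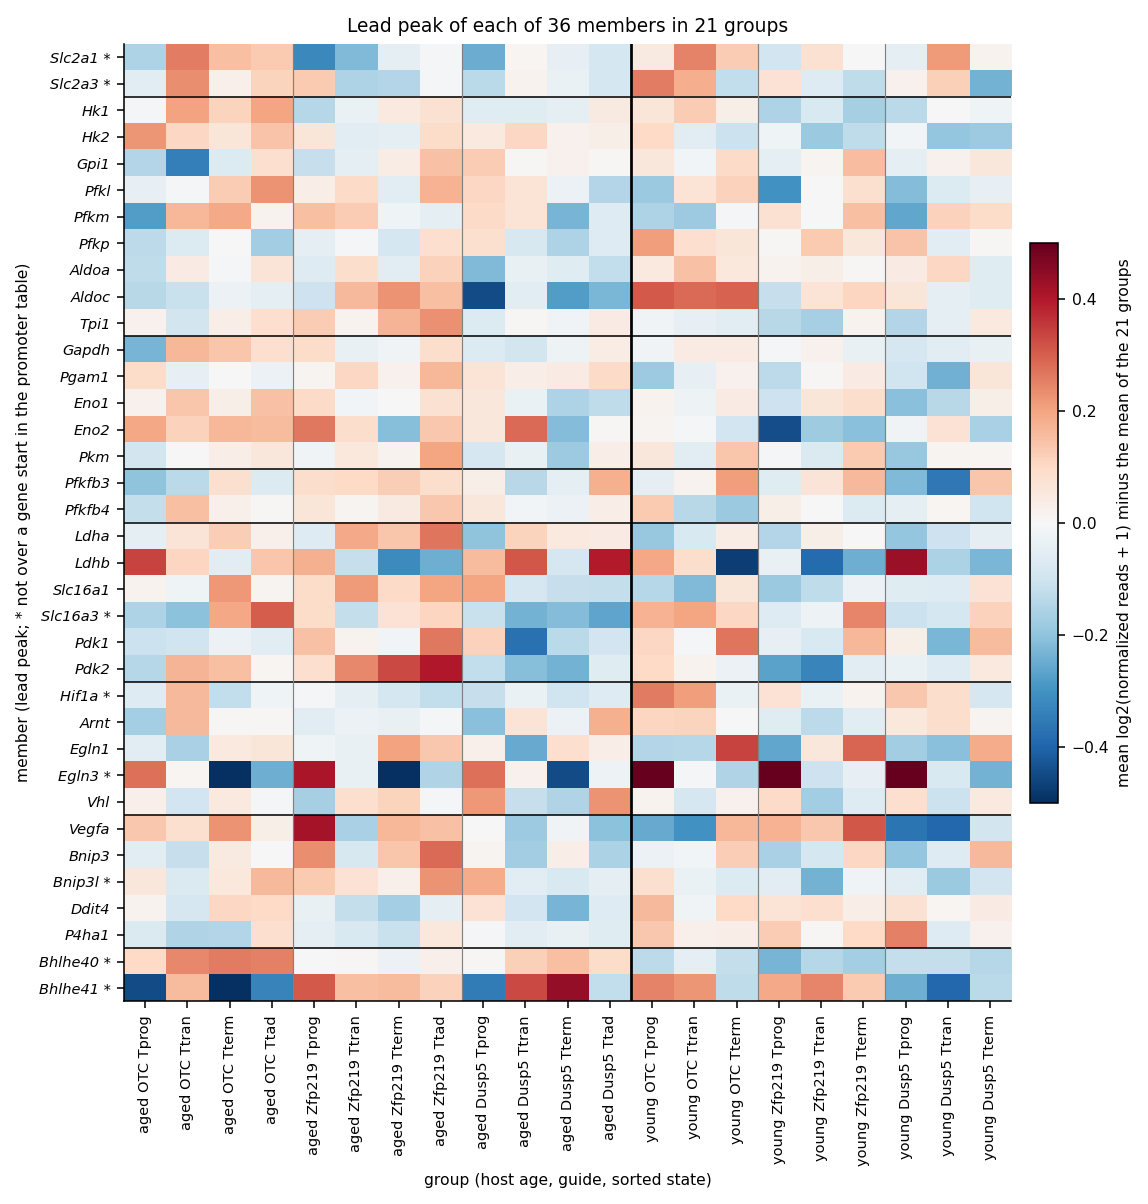
Rows are the lead peaks of the 36 genes ordered by role and columns the 21 groups; colour is the group mean of log2(normalized reads + 1) minus the peak's mean over groups, with the scale limited to 0.5 either side. Most rows are pale, and Egln3 is highest in the Tprog columns.

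The first comparison, Tprog with Tterm, asks how these sites differ between progenitor and terminal cells. It was made among OTC libraries in each host age on log2(normalized reads + 1), and a call is a limma p under 0.05 after adjustment over all peaks. In aged hosts 12 of the 175 member peaks were higher in Tprog and 15 lower, 15.4% of them against 20.1% of all peaks (8.88% higher and 11.2% lower), in 14 genes. In young hosts 25 were higher and 15 lower, 22.9% against 26.5% of all peaks (13.9% and 12.6%), in 19 genes. As a set the members were therefore called no more often than the genome at large, and their median difference was 0.03 in aged and 0.07 in young hosts, against 0.01 for all peaks in both. Under quantile normalization the aged split became 14 higher and 10 lower, against 4667 higher and 5538 lower of all peaks (18.9% called). The aged count fell from 27 to 14 without aged OTC Tprog replicate 1 or Tterm replicate 1 and to 16 without Tprog replicate 2, and the young count from 40 to 25 without young OTC Tprog replicate 1 and to 23 without replicate 2.

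**Figure D3:**
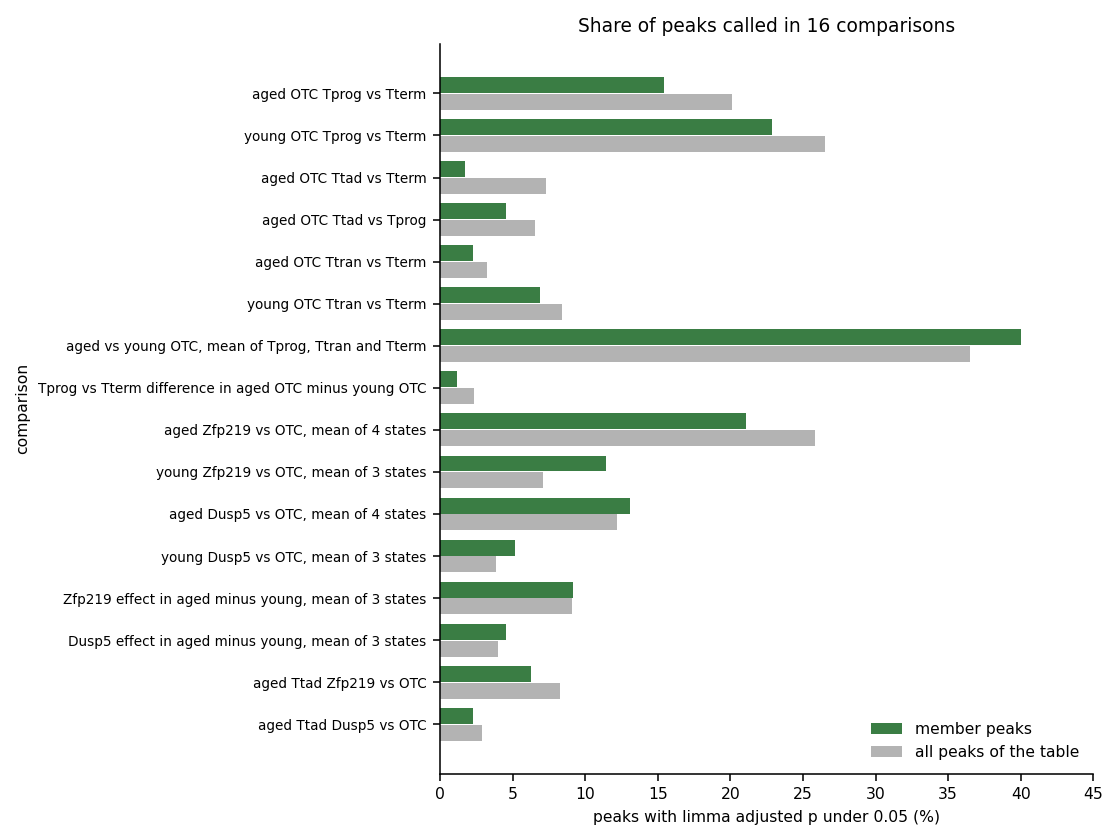
Bars give, for each of 16 comparisons, the percent of member peaks called by limma and the percent of all peaks called. Members lie furthest above all peaks in young Zfp219 against OTC (11.4% and 7.07%) and furthest below in Ttad against Tterm (1.71% and 7.28%).

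By role, the shares of peaks called are read against the 20.1% of all peaks in aged and 26.5% in young hosts, and no test was made between roles. Peaks of the oxygen-sensing genes (Hif1a, Arnt, Egln1, Egln3 and Vhl, 30 peaks) were called 5 times higher and 0 times lower in aged Tprog, and 8 and 1 times in young Tprog, the 1 being the Egln1 promoter; these shares, 16.7% and 30.0%, lie near those of all peaks. Hif1a supplied 3 of the 5 and 7 of the 8 higher calls among its 17 peaks, and none of its peaks was called lower. Several of these calls were not stable. Aged ones were lost at chr12:73887598 without OTC Tterm replicate 1 (0.18) and at chr12:73876287 without OTC Tprog replicate 1 (0.54). Young ones were lost at chr12:73887598 without OTC Tprog replicate 2 (0.28). Under quantile normalization the young calls at chr12:73876287 (0.49, limma adjusted p = 0.0537) and chr12:73948815 (0.90, 0.0806) were lost. Peaks of Pfkfb3 and Pfkfb4, which set the level of fructose 2,6-bisphosphate, an activator of phosphofructokinase, were called 0 higher and 4 lower of 22 in aged and 3 and 3 in young hosts (18.2% and 27.3%). The first steps of glycolysis (Hk1, Hk2, Gpi1, Pfkl, Pfkm, Pfkp, Aldoa, Aldoc and Tpi1, 36 peaks) had 2 higher and 3 lower in aged and 5 and 4 in young hosts (13.9% and 25%). Lower glycolysis (Gapdh, Pgam1, Eno1, Eno2 and Pkm, 12 peaks) had 0 and 2, and 0 and 1 (16.7% and 8.33%).

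Among the Hif1a sites, the peak inside the annotated body but upstream of the tabulated start (chr12:73904212-73904994) read 325 and 360.2 normalized reads in aged OTC Tprog against 163 and 207 in Tterm. In young OTC it read 386 and 400.4 against 205, 195 and 216. The groups did not overlap in either age. The log2 difference was 0.89 ± 0.19 (SE; limma adjusted p = 0.00016) in aged and 0.93 ± 0.17 (limma adjusted p = 1.03e-05) in young hosts, and both calls held in every alternative. The peak 4.73 kb outside the Hif1a body (chr12:73895245-73896595) read 172 and 160.0 in young Tprog and 56.9, 90.4 and 60.7 in young Tterm, a difference of 1.28 ± 0.26 (limma adjusted p = 5.45e-05). In aged hosts it read 121 and 115 against 58.8 and 88.9, and the difference of 0.70 ± 0.28 did not pass (limma adjusted p = 0.0691). Values of the Hif1a promoter peak differed by -0.17 ± 0.09 in aged and -0.02 ± 0.08 in young hosts, neither of which passed (limma adjusted p = 0.171 and 0.916). Here and below, a peak that is neither a lead or promoter peak nor among the 5 largest called differences of its comparison (this Hif1a body peak is one) was chosen after its values were seen.

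Egln3, a prolyl hydroxylase that is itself a HIF target, had its lead peak at 519.7 and 518 in aged OTC Tprog, 430.2 and 432 in Ttran, 272 and 295 in Tterm and 305 and 427 in Ttad. Young OTC values were 663 and 583 in Tprog, 439, 461 and 382 in Ttran and 399, 381 and 379 in Tterm. Tprog lay above every other state in both ages. Its difference from Tterm was 0.87 ± 0.13 (limma adjusted p = 6.15e-08) in aged and 0.69 ± 0.12 (limma adjusted p = 1.84e-06) in young hosts, and both calls held in every alternative. The Egln1 promoter peak, shown above, went the other way in young hosts, with 352 and 399 in Tprog, 361, 421 and 348 in Ttran and 532, 477 and 570.3 in Tterm. The difference of Tprog from Tterm was -0.48 ± 0.12 (limma adjusted p = 0.00126; -0.40 and 0.062 without young OTC Tprog replicate 1), and that of Ttran from Tterm was -0.48 ± 0.11 (limma adjusted p = 0.00131). In aged OTC cells the Egln1 promoter read 392 and 409 in Tprog and 464 and 397 in Tterm, which overlap.

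Pdk1 encodes the kinase that keeps pyruvate out of the mitochondrial citric acid cycle. A peak 37.2 kb past the gene (chr2:71941092-71942335) read 474 and 416 in aged Tprog against 289.8 and 274 in Tterm, and 746 and 731 in young Tprog against 377, 352 and 393 in Tterm. It was higher in Tprog by 0.66 ± 0.14 in aged and 0.98 ± 0.13 in young hosts (limma adjusted p = 0.000201 and 1.44e-09), in every alternative. Slc16a1, the lactate and pyruvate carrier MCT1, had the largest called difference of the aged comparison at a peak 21.9 kb outside the gene (chr3:104616105-104616776). That peak read 122 and 128 in aged Tprog against 20.7 and 54.1 in Tterm, and 77.4 and 55.6 in young Tprog against 15.8, 28.3 and 20.2. The difference was 1.87 ± 0.47 (3.64-fold; limma adjusted p = 0.00145) in aged hosts and 1.61 ± 0.43 (limma adjusted p = 0.00217) in young hosts. The aged call was lost without aged OTC Tterm replicate 1 (1.19, limma adjusted p = 0.162) and the young one without young OTC Tprog replicate 1 (1.37, limma adjusted p = 0.0653).

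Ddit4, a stress-induced inhibitor of mTORC1 signalling, had a peak 6.38 kb outside the gene (chr10:59958149-59959398) at 405 and 347 in young Tprog against 180.1, 215 and 211 in Tterm, a difference of 0.89 ± 0.14 (limma adjusted p = 2.81e-07). In aged hosts it read 515 and 503 against 387 and 373. That smaller difference of 0.42 ± 0.15 passed (limma adjusted p = 0.0412), but leaving out any of the 4 libraries ended the call: 0.40 without Tprog replicate 1 (limma adjusted p = 0.172), 0.44 without replicate 2 (0.123), 0.45 without Tterm replicate 1 (0.116) and 0.40 without replicate 2 (0.172). P4ha1, a collagen prolyl hydroxylase and HIF target, was higher in young Tprog at a peak 12.3 kb inside the gene (chr10:59334995-59336106): 229 and 278 against 106, 144 and 146, a difference of 0.95 ± 0.22 (limma adjusted p = 0.000478).

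Other member peaks were lower in Tprog. Inside Hk2, a hexokinase, a peak 26.2 kb from the start (chr6:82748020-82748566) read 73.6 and 84.3 in aged Tprog against 145 and 167 in Tterm (-0.97 ± 0.25, limma adjusted p = 0.00246). In young hosts it read 83.8 and 130.1 against 152, 156 and 185 (-0.64 ± 0.23, limma adjusted p = 0.0289), a call lost without young OTC Tprog replicate 1 (-0.33, limma adjusted p = 0.486) and without Tterm replicate 3 (-0.56, limma adjusted p = 0.112). Its neighbour 29.5 kb from the Hk2 start (chr6:82744349-82745477) went the opposite way: 914 and 955 against 704 and 706 in aged hosts, and 687 and 672 against 499, 487 and 486 in young hosts. Those differences were 0.41 ± 0.11 (limma adjusted p = 0.00385; 0.37 and 0.0531 without aged OTC Tprog replicate 2) and 0.47 ± 0.10 (limma adjusted p = 0.000141). Sites within 1 gene thus differed in direction.

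Pfkp, the platelet-type phosphofructokinase, was lower in Tprog at a peak 24.2 kb inside the gene (chr13:6624131-6625039). It read 268 and 218 against 399.9 and 417 in aged hosts and 252 and 294 against 382, 429 and 424 in young hosts, differences of -0.75 ± 0.14 and -0.59 ± 0.13 (limma adjusted p = 2.09e-05 and 0.000195). Just outside the same gene (chr13:6652541-6652979) the young Tprog values of 134 and 132 lay above the Tterm values of 58.1, 63.7 and 64.1, by 1.09 ± 0.24 (limma adjusted p = 0.000154). Pfkfb3 had a peak 23.5 kb inside the gene (chr2:11529871-11530972) at 331 and 279 in aged Tprog against 482 and 454 in Tterm, and at 288 and 284 in young Tprog against 376, 409 and 399. Its differences of -0.62 ± 0.15 and -0.46 ± 0.14 passed (limma adjusted p = 0.000831 and 0.00599). The aged one was lost without Tprog replicate 2 (-0.50, limma adjusted p = 0.0522) and the young one without young Tprog replicate 2 (-0.45, limma adjusted p = 0.0549).

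Differences at the Gapdh and Ldha promoters and at the glucose carriers' lead peaks, given below, were smaller. This did not hold for every promoter or lead peak, as the Egln3 lead peak above shows. The Bhlhe41 promoter peak was higher in aged Tprog by 0.93 ± 0.35 (limma adjusted p = 0.045). That call was lost under quantile normalization (0.84, limma adjusted p = 0.0804) and without either aged OTC Tprog library or Tterm replicate 2 (0.58 to 1.12). The Gapdh promoter, for the dehydrogenase of lower glycolysis, read 1029 and 1180.0 in aged Tprog against 1473 and 1381 in Tterm (-0.37 ± 0.08, limma adjusted p = 0.000181, in every alternative). In young hosts the Gapdh values were 1300.2 and 1257 against 1298, 1379.9 and 1313, which overlap. The Slc2a1 lead peak, at the gene of the main glucose carrier GLUT1, read 1436 and 1577 in aged Tprog against 1818 and 1903 (-0.31 ± 0.07, limma adjusted p = 0.000268), but this call was lost under quantile normalization (-0.15, limma adjusted p = 0.0999). Slc2a3, the high-affinity carrier GLUT3, was higher in young Tprog at its lead peak, with 2454 and 2428 against 1915, 1932 and 1783 (0.38 ± 0.06, limma adjusted p = 1.53e-07). A weak peak 18.7 kb outside Slc2a1 (chr4:119089530-119090053) had the largest called difference of the young comparison: 5.73 and 8.56 against 49.3, 52.7 and 39.9, or -2.58 ± 0.59 (limma adjusted p = 0.000308). The Ldha promoter differed by -0.23 ± 0.09 in young hosts at the edge of the threshold (limma adjusted p = 0.0497), a call lost when any of the 5 libraries was left out or under quantile normalization, with values between -0.27 and -0.19.

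The same sites were followed through the other guides. Counting the 6 pairs of Tprog and Tterm groups (2 ages and 3 guides), 9 member peaks had every Tprog library above every Tterm library in all 6, 5.14% of members against 7.55% of all peaks, and 6 had every one below, 3.43% against 6.85%. Those above were at Pfkp, Pfkfb3, Slc16a1, Pdk1, Hif1a (2 peaks), Egln3, Ddit4 and Bhlhe40; those below were at Hk2, Pfkp, Pfkfb3, Ddit4 and Bhlhe40 (2 peaks). The differences over the 6 pairs ran from 1.56 to 2.34 at the Slc16a1 peak, from 0.55 to 0.92 at the Egln3 lead peak, from 0.54 to 1.22 at the Pdk1 peak and from 0.48 to 1.36 at the Hif1a body peak. At the Hk2 peak they ran from -0.97 to -0.63, and at the Pfkp body peak from -0.79 to -0.55.

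**Figure D4:**
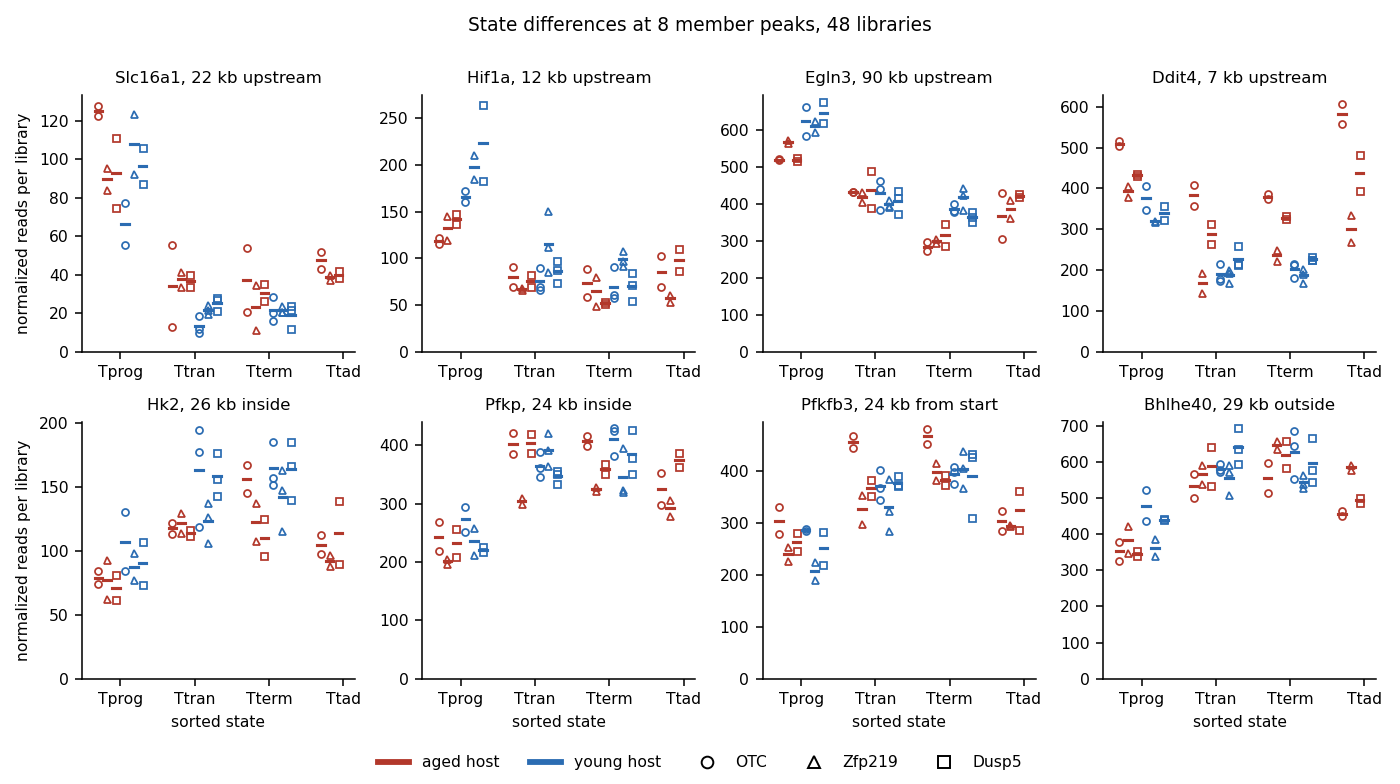
Each panel is a member peak and each point a library, by state (Tprog, Ttran, Tterm, Ttad) and host age, in normalized reads. In the top panels (Slc16a1, Hif1a, Egln3 and Ddit4) every Tprog library lies above every Tterm library of the same age and guide, and in the bottom panels (Hk2, Pfkp, Pfkfb3 and Bhlhe40) below.

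Ttran and Ttad cells were compared next, as intermediate and Tim-3 negative states. In aged OTC hosts 2 member peaks were higher and 2 lower in Ttran than in Tterm (2.29% against 3.22% of all peaks, 1.87% higher and 1.35% lower), and in young OTC hosts 7 and 5 (6.86% against 8.38%, 5.02% higher and 3.36% lower). The young calls included the Slc2a3 lead peak, at 2402, 2280.4 and 2280.2 in Ttran against 1915, 1932 and 1783 (0.31 ± 0.05, limma adjusted p = 1.36e-05), and the peak outside Pfkp, at 126, 113 and 100.3 against 58.1, 63.7 and 64.1 (0.85 ± 0.21, limma adjusted p = 0.00358). Another Pfkfb3 peak 13.2 kb inside the gene was higher in young Ttran by 0.66 ± 0.15 (limma adjusted p = 0.00172). Lower in young Ttran were the Egln1 promoter above, a Slc2a3 body peak (chr6:122763984-122765359, -0.60 ± 0.14, limma adjusted p = 0.00245) and the Vegfa promoter (-0.47 ± 0.14, 0.0182). The Vegfa call was lost without Ttran replicate 3 (-0.35, limma adjusted p = 0.191). The 2 lower aged peaks were at P4ha1 (chr10:59309001-59309431, -2.44 ± 0.65, 0.0178) and Pfkp (-0.72 ± 0.22, 0.04). Both were lost with the compared groups alone and by edgeR. In aged hosts the Egln3 lead peak was higher in Ttran by 0.60 ± 0.13 (limma adjusted p = 0.00202), a call lost without aged OTC Tterm replicate 1 (0.55, limma adjusted p = 0.066). The aged count of 4 fell to 0 without that library and to 1 without Ttran replicate 2; the young count of 12 fell to 7 without young OTC Tterm replicate 1 and to 6 without Ttran replicate 1.

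Ttad cells in aged OTC hosts differed little from Tterm at the member peaks, with 1 higher and 2 lower (1.71% against 7.28% of all peaks, 3.02% higher and 4.26% lower). The Ddit4 peak outside the gene was higher, at 607 and 558 in Ttad against 387 and 373 in Tterm (0.61 ± 0.15, limma adjusted p = 0.0052), and the Pfkfb3 body peak lower, at 324 and 286 against 482 and 454 (-0.62 ± 0.15, limma adjusted p = 0.00296). The third and largest was a weak Vegfa peak inside the gene (chr17:46022438-46022837), at 6.71 and 13.6 against 28.3 and 43.1 (-1.76 ± 0.56, limma adjusted p = 0.0371). The count of 3 was 1 without aged OTC Tterm replicate 1 or replicate 2 and 5 without Ttad replicate 2. All 3 calls depended on single libraries: Ddit4 on Ttad replicate 1 (0.55, limma adjusted p = 0.0842 without it) and Tterm replicate 2 (0.59, 0.0628), and Pfkfb3 on Ttad replicate 2 (-0.53, 0.0686) and Tterm replicate 1 (-0.58, 0.0589). The Vegfa call was lost without Ttad replicate 1 (-1.30, limma adjusted p = 0.331), Tterm replicate 1 (-2.06, 0.0809) or Tterm replicate 2 (-1.47, 0.274), with the compared groups alone (0.0799) and by edgeR (-1.78, 0.0507). Against Tprog, 7 member peaks were higher in Ttad and 1 lower (4.57% against 6.55% of all peaks, 3.82% higher and 2.73% lower). Under quantile normalization the split was 0 and 1, against 1510 and 1300 of all peaks (5.22% called). The count was 0 without aged OTC Tprog replicate 1 and 1 without Ttad replicate 1. The 1 lower peak was the Egln3 lead peak (-0.52 ± 0.13, limma adjusted p = 0.00476), lost without Tprog replicate 1 (-0.52, limma adjusted p = 0.0536) and without Ttad replicate 1 (-0.28, limma adjusted p = 0.375). These Ttad comparisons share the aged OTC Tprog and Tterm libraries with the comparison above.

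Host age was compared among OTC libraries as the mean over Tprog, Ttran and Tterm. Of the 175 member peaks 27 were higher in aged hosts and 43 lower, 40.0% against 36.5% of all peaks (17.3% higher and 19.1% lower), in 23 genes; the median difference was 0.00 for members and for all peaks. The S numbers in the column headers run from S1 in the aged libraries and again from S1 in the young ones. The headers do not say whether the ages were prepared separately. If they were, host age and preparation cannot be told apart. Depth moved with age (median of 12619906 reads in peaks in aged and 16950434 in young libraries), as did sums of marker peaks over these OTC groups. The CD8 T cell peaks summed to 6684 to 7372 in aged and 7449 to 8421 in young groups, the Itgam peaks to 928 to 1001 and 1191 to 1411, and the Pmel and Mlana peaks to 818, 727 and 681 in aged and 1036, 839 and 699 in young Tprog, Ttran and Tterm. The terminal marker peaks summed to 3430, 5951 and 6785 in aged and 4339, 6877 and 7641 in young cells of these states, in the same order. The progenitor marker peaks summed to 10675, 7199 and 5625 in aged and 10861, 6465 and 4723 in young cells. The part of depth and of these sums in the result was not tested. Peaks of the oxygen-sensing genes were called 0 higher and 9 lower of 30 (30.0% called), of which 7 lower were at Hif1a. Hk2 had 5 higher and 0 lower of 10, Slc16a1 5 and 2 of 8, Pfkfb3 2 and 6 of 17, and Bhlhe40 8 and 2 of 13.

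The clearest age differences at Hif1a and P4ha1 were at distal peaks. A peak 19.3 kb outside Hif1a (chr12:73879755-73882006) read 281 to 463 over the 6 aged OTC libraries of these states (median 342) and 444 to 642 over the 8 young ones (median 569). The difference was -0.67 ± 0.08 (limma adjusted p = 4.99e-12), and within each state no aged library reached a young one. The P4ha1 peak 12.3 kb inside the gene read 65.4 to 113 in aged and 106 to 278 in young libraries (-1.04 ± 0.13, limma adjusted p = 2.43e-10), and a second one 6.68 kb past it (chr10:59379982-59381087) 58.9 to 104 and 140.4 to 215 (-1.09 ± 0.14, limma adjusted p = 1.36e-10). The Pdk1 peak past the gene was lower in aged hosts by 0.60 on the log2 scale (-0.60 ± 0.08, limma adjusted p = 3.53e-10). The other way, the Hk2 peak 29.5 kb from the start was higher in aged hosts (0.46 ± 0.06, limma adjusted p = 5.11e-10) and the Ddit4 peak outside the gene too (0.79 ± 0.08, limma adjusted p = 3.05e-13). These 6 calls held in every alternative.

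Over all 9 age pairs (3 guides and 3 states), 2 member peaks had every aged library above every young one in each pair, 1.14% against 0.954% of all peaks: the Hk2 peak, by 0.08 to 0.52, and the Bhlhe40 lead peak, by 0.12 to 0.38. Another 4 had every aged library below in each pair, 2.29% against 1.53%: the Pdk1 peak past the gene (-1.22 to -0.41), the Hif1a peak 19.3 kb away (-0.40 in the pair nearest 0), and the P4ha1 peaks inside (-1.45 to -0.52) and past the gene (-1.20 to -0.38). The Tprog and Tterm difference itself was tested for a difference between the ages, and 1 member peak was called higher and 1 lower (1.14% against 2.32% of all peaks, 0.512% higher and 1.81% lower). At the Slc2a3 lead peak Tprog lay below Tterm in aged hosts (1963 and 1969.6 against 2089 and 2070.2) and above it in young hosts, an interaction of -0.46 ± 0.09 (limma adjusted p = 0.000313). That call was lost under quantile normalization (-0.20, limma adjusted p = 0.277). The other was the Hk2 peak 20.9 kb from the start (0.69 ± 0.20, limma adjusted p = 0.0441), and the count of 2 was 1 without either aged OTC Tprog library, aged OTC Tterm replicate 2, young OTC Tprog replicate 1 or any young OTC Tterm library.

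Bhlhe40 is a transcriptional repressor induced by hypoxia and by T cell receptor signals, and only Hif1a and Pfkfb3 had more peaks. It had the most called peaks of any member by host age, 10 of 13, against 36.5% of all peaks. The same held with each guide in aged hosts, 8 with Zfp219 and 9 with Dusp5, against 25.8% and 12.2% of all peaks. A gene singled out as having the most calls lies above the share of all peaks partly by that choice. Whether this locus is unusual was not tested. Under quantile normalization the lead peak call was lost with both guides (-0.05 and -0.02). With Dusp5 those at chr6:108687925 (-0.13) and at the peak 42.4 kb outside the gene (-0.04) were lost too. One peak 37.5 kb outside the gene (chr6:108704381-108705105) set the aged OTC libraries apart. The 8 aged OTC libraries read 192 to 238, with 199 and 211 in Tprog, 238 and 194 in Ttran, 194 and 192 in Tterm and 196 and 219 in Ttad. The aged Zfp219 libraries read 80.6 to 140.1, the aged Dusp5 libraries 60.2 to 152, and the young libraries of all 3 guides 54.6 to 150.0. No other library reached the lowest aged OTC value. The difference between aged and young OTC was 1.29 ± 0.15 (limma adjusted p = 4.14e-12). In aged hosts Zfp219 libraries lay below OTC by -0.95 ± 0.13 (limma adjusted p = 1.57e-08) and Dusp5 libraries by -0.91 ± 0.13 (limma adjusted p = 2.54e-07), in every alternative. In young hosts the values were 0.09 ± 0.14 and -0.02 ± 0.14 and did not pass. The 3 comparisons that passed share the aged OTC libraries, so they are not independent of each other.

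**Figure D5:**
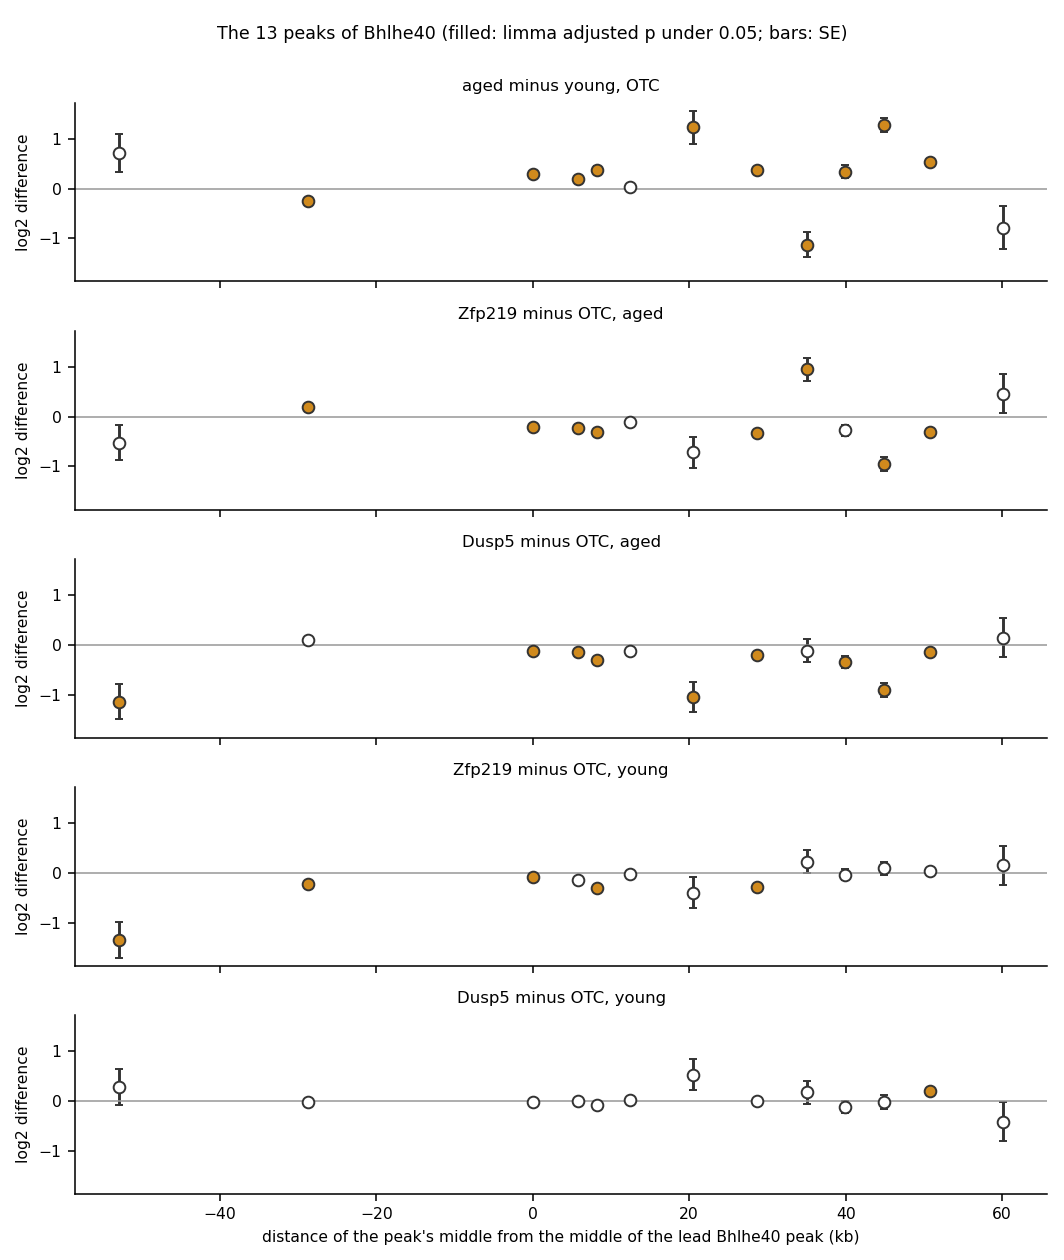
For the 13 Bhlhe40 peaks in order along the chromosome, points are log2 differences with standard errors in 5 comparisons (aged minus young OTC, and each guide minus OTC in aged and in young hosts). The peak 37.5 kb outside the gene lies at 1.29 for age and at -0.95 and -0.91 for the 2 guides in aged hosts, and near 0 for both in young hosts.

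The guides were then compared with OTC within each age as the mean over states; Zfp219 is a zinc finger protein and Dusp5 a phosphatase of the ERK kinases. With the Zfp219 guide in aged hosts 15 member peaks were higher and 22 lower (21.1% against 25.8% of all peaks, 12.1% higher and 13.7% lower), in 15 genes. Under quantile normalization the split was 18 and 17, against 7326 and 6398 of all peaks (25.5% called). In young hosts 4 were higher and 16 lower (11.4% against 7.07%, 1.92% higher and 5.15% lower), in 12 genes. Quantile normalization gave 2 and 10, against 1071 and 1844 of all peaks (5.41% called). With the Dusp5 guide in aged hosts 4 were higher and 19 lower (13.1% against 12.2%, 4.35% higher and 7.87% lower), in 12 genes. Quantile normalization gave 5 and 9, against 2166 and 2641 of all peaks (8.92% called). In young hosts 1 was higher and 8 lower (5.14% against 3.82%, 1.8% higher and 2.02% lower), in 9 genes. Under quantile normalization, with 2.85% of all peaks called, calls were lost at the Slc2a3 lead peak and the Hk1 promoter (-0.06 each, limma adjusted p = 0.375 and 0.447). The call at the Egln3 promoter was lost there too (-0.23, limma adjusted p = 0.0716). Within an age both guides were compared with the same OTC libraries. Sums of marker peaks moved with the guides in both ages, and those of aged hosts are given first. In Tprog, Ttran, Tterm and Ttad the Pmel and Mlana peaks summed to 818, 727, 681 and 816 with OTC, 755, 616, 540 and 629 with Zfp219, and 681, 543, 564 and 696 with Dusp5. The Itgam peaks summed to 928 to 1007 with OTC and to more in each state with Zfp219 (1002 to 1164). The progenitor marker peaks summed to less with Zfp219 than with OTC in each aged state (9460 against 10675 in Tprog, 5066 against 5625 in Tterm) and the terminal marker peaks to more (3824 against 3430, 7117 against 6785), while the CD8 T cell peaks summed to less with Dusp5 in each (5876 to 6994 against 6684 to 7372). Depth differed too. Aged Ttad libraries held 15723953 and 15700492 reads in peaks with Zfp219 and 8059981 and 10929698 with OTC. Young Ttran libraries held 6589023 to 7952298 with Zfp219 and 12629361 to 29942755 with OTC. In young Tprog, Ttran and Tterm the CD8 T cell peaks summed to 8421, 7449 and 7449 with OTC. They summed to 7825, 7278 and 6843 with Zfp219 and to 8166, 7340 and 6596 with Dusp5. The progenitor marker peaks there summed to 10861, 6465 and 4723 with OTC, 10585, 5877 and 4613 with Zfp219, and 11093, 6605 and 4380 with Dusp5. The terminal, Itgam, and Pmel and Mlana sums went both ways across the young states. The part of these in the results was not tested. The young Zfp219 count of 20 was 10 without young OTC Tprog replicate 1 or young Zfp219 Tprog replicate 2 and 12 without young OTC Tprog replicate 2. The aged Dusp5 count of 23 was 15 without aged Dusp5 Ttran replicate 2. The young Dusp5 count of 9 was 3 without young OTC Tprog replicate 2, 4 without young Dusp5 Tprog replicate 2 and 5 without young Dusp5 Tterm replicate 2.

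Clear differences with the Zfp219 guide outside Bhlhe40 lay at Ddit4 and Hif1a. At the Ddit4 peak 6.38 kb outside the gene, the 8 aged Zfp219 libraries read 144 to 407 (median 259) and the 8 aged OTC libraries 358 to 607 (median 456). Every Zfp219 library lay below OTC within its state, by -0.80 ± 0.08 on average (limma adjusted p = 1.24e-14), and the difference in Ttad alone was -0.96 ± 0.15 (limma adjusted p = 6.42e-06). A peak 1.26 kb past Hif1a (chr12:73948815-73949362) was lower with the Zfp219 guide in both ages, by -0.94 ± 0.22 in aged and -1.15 ± 0.22 in young hosts (limma adjusted p = 0.000421 and 0.000132). Its young values were 15.8 to 30.9 over 8 Zfp219 libraries (median 23.2) and 18.9 to 91.5 over 8 OTC libraries (median 55.6). These 4 calls held in every alternative. In aged Ttad alone the same Hif1a peak was lower with Zfp219 by -1.37 ± 0.43 (limma adjusted p = 0.0322). That Ttad call was lost under quantile normalization (-1.29, limma adjusted p = 0.0501) and with the compared groups alone (0.0519). It was also lost with any single OTC or Zfp219 Ttad library left out (-1.66 to -1.09).

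Upper glycolysis peaks were called 0 higher and 7 lower of 36 with the aged Zfp219 guide (19.4%, against 25.8% of all peaks called and 13.7% called lower), 3 each at Hk2 and Pfkp and 1 at Hk1. The call at the Hk2 promoter was lost under quantile normalization (-0.07, limma adjusted p = 0.228), as was that at the Hk1 promoter. At the Hk2 peak 29.5 kb from the start, aged Zfp219 libraries read 726 and 754 in Tprog, 602 and 569 in Ttran, 574 and 687 in Tterm and 552 and 671 in Ttad. Aged OTC libraries read 914 and 955, 871 and 690.3, 704 and 706, and 838 and 816, so the groups did not overlap in any state (-0.34 ± 0.06, limma adjusted p = 8.07e-07). The Slc2a1 lead peak was lower with Zfp219 in aged hosts (-0.24 ± 0.03, limma adjusted p = 7.02e-09, in every alternative) and in young hosts (-0.15 ± 0.03, limma adjusted p = 0.00245) and with Dusp5 in aged hosts (-0.19 ± 0.03, limma adjusted p = 2.35e-05). The last 2 were lost under quantile normalization (-0.07 each, limma adjusted p = 0.245 and 0.162). Aged Slc2a1 values were 1436 to 2036 with OTC, 1331 to 1679 with Zfp219 and 1388 to 1688 with Dusp5. The Hk1 promoter was lower with Zfp219 in young hosts (-0.20 ± 0.03, limma adjusted p = 1.28e-05, in every alternative). Its aged differences of -0.14 ± 0.03 with Zfp219 and -0.16 ± 0.03 with Dusp5 (limma adjusted p = 0.000981 and 0.000435) were lost under quantile normalization (-0.04 each, limma adjusted p = 0.359 and 0.536).

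Some member peaks were higher with the Zfp219 guide. The peak outside Pdk1 at chr2:71866322-71867035 read 36.7 to 71.4 over the 8 aged Zfp219 libraries and 19.1 to 40.8 over the 8 aged OTC libraries, with no overlap within a state (0.90 ± 0.20, limma adjusted p = 0.000259). The P4ha1 peak past the gene was higher too, with 97.5 to 127 against 50.3 to 104 (0.60 ± 0.13, limma adjusted p = 8.41e-05). So was the Pfkfb3 lead peak at a promoter, by 0.18 ± 0.05 (limma adjusted p = 0.0029). These 3 calls held in every alternative. Vegfa, at the promoter shown above, was higher with Zfp219 in young hosts, with 285 and 328 in Tprog, 322, 304 and 270.0 in Ttran and 329.7, 318.9 and 361 in Tterm against 249 and 207, 215, 266 and 185, and 318.5, 289 and 307 with OTC. Every Zfp219 library lay above every OTC library within its state, in Tterm by a margin of under 1 read at the closest pair, and the difference was 0.34 ± 0.09 (limma adjusted p = 0.00605; 0.29 and 0.0514 without young OTC Tprog replicate 2).

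Within each state every library of a guide lay on 1 side of OTC at few member peaks. With Zfp219 in aged hosts 1 peak lay above OTC in all 4 states (0.571% against 2.53% of all peaks) and 9 below (5.14% against 5.14%), of which 5 were at Bhlhe40. With Zfp219 in young hosts 2 lay above (1.14% against 0.568%) and 6 below (3.43% against 1.51%). With Dusp5 in aged hosts 0 lay above (0.0% against 0.702%) and 8 below (4.57% against 2.13%), 4 of them at Bhlhe40, 2 at Ddit4, 1 at Hk1 and 1 at Egln3. With Dusp5 in young hosts 1 lay above (0.571% against 0.709%) and 1 below (0.571% against 0.874%). At the Ddit4 peak 16.1 kb past the gene (chr10:59932216-59933579) the aged Dusp5 difference was -0.38 ± 0.06 (limma adjusted p = 4.22e-06), in every alternative.

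Whether a guide's difference itself changed with host age was tested over Tprog, Ttran and Tterm. For Zfp219 8 member peaks were called higher and 8 lower (9.14% against 9.11% of all peaks, 4.09% higher and 5.01% lower). Quantile normalization gave 9 and 5, against 2200 and 2299 of all peaks (8.35% called). For Dusp5 4 were higher and 4 lower (4.57% against 4.0%, 1.27% higher and 2.73% lower), and 14 of 28 single libraries, when left out, took this count of 8 to between 2 and 5. At the Ddit4 peak outside the gene the Zfp219 difference was lower in aged than in young hosts by -0.63 ± 0.12 (limma adjusted p = 8.95e-05), and at the Bhlhe40 peak 37.5 kb away by -1.02 ± 0.21 (limma adjusted p = 0.000283). At the Bhlhe40 peak 42.4 kb away (chr6:108709295-108711977) the interactions were -0.35 ± 0.07 for Zfp219 and -0.34 ± 0.07 for Dusp5 (limma adjusted p = 0.000212 and 0.00048). These 4 held in every alternative. In Ttad alone, Zfp219 gave 3 higher and 8 lower member peaks (6.29% against 8.23%, 3.66% higher and 4.56% lower) and Dusp5 0 and 4 (2.29% against 2.88%, 1.21% higher and 1.67% lower). The Zfp219 count of 11 fell to 3 without aged OTC Ttad replicate 1, to 2 without aged Zfp219 Ttad replicate 1 and to 6 without replicate 2; the Dusp5 count of 4 was 2 without aged Dusp5 Ttad replicate 2 and 9 without aged OTC Ttad replicate 2.

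Other genes of the same pathways served for comparison: 25 further glycolysis genes, 18 of them with 38 peaks in all, and 35 further hypoxia genes, 33 of them with 155 peaks. Between Tprog and Tterm, glycolysis peaks were called 2 higher and 2 lower of 38 in aged hosts (10.5%, against 20.1% of all peaks) and 5 and 6 in young hosts (28.9% against 26.5%). Hypoxia peaks were called 13 and 22 of 155 in aged hosts (22.6%), and 22 and 28 in young hosts (32.3%). By host age the counts were 5 and 5 of 38 (26.3%), and 26 and 32 of 155 (37.4%), against 36.5% of all peaks. With the aged Zfp219 guide they were 6 and 5 (28.9%), and 15 and 22 (23.9%), against 25.8%. With the aged Dusp5 guide they were 0 and 6 (15.8%), and 5 and 17 (14.2%), against 12.2%. The largest called difference between states was at Epas1, which encodes the related oxygen-regulated subunit HIF-2α: a peak at chr17:86872430-86873469 was higher in Tprog by 3.10 ± 0.41 in aged and 3.03 ± 0.37 in young hosts (limma adjusted p = 2.27e-09 and 1.4e-10).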

How the data were processed

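The deposited table held 53868 peaks by 48 libraries as normalized signal, which the authors made by dividing reads per peak by a factor for each library; this reading comes from the values, 100.0% of which were whole multiples of 1 library step within 0.001 reads. The labels name the build mm10, and the submitters' processing notes list Bowtie2 2.2.9, Picard 2.8.0, MACS2 2.1.1, SAMtools 1.3.1 and DESeq2 1.28.1 without giving their roles. Peaks were assigned to genes with RefSeq gene positions (GRCm38.p6). limma 3.58.1 (trended variance, R 4.3.3) was fitted to log2(signal + 1) over all peaks with 21 group means, and Benjamini-Hochberg adjusted p-values were called under 0.05. The alternatives were a pseudocount of 8, leaving out the weakest 25% of peaks, quantile normalization, fitting the compared groups alone, edgeR 4.0.16 (quasi-likelihood, TMM) on the recovered reads, a replicate block, gene body peaks only and each library left out. Gene body peaks only was a setting for counts. For a single peak, every alternative means the settings other than that one.

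Named peaks were each gene's lead and promoter peak and, per comparison, the 5 largest called differences at a mean of at least 20, plus others chosen after their values were seen. The members and lists were chosen with earlier results of these data known.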

Additional observations from a re-analysis of the deposited data

Results flagged for a closer look

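Effects that differed between aged and young hosts, by limma's interaction term, are listed here as values. The difference between Tprog and Tterm changed with age at 2 member peaks (1.14%, against 2.32% of all peaks). They were at Hk2 (chr6:82752969-82754238, 0.69 ± 0.20, limma adjusted p = 0.0441) and at the Slc2a3 lead peak (-0.46 ± 0.09, limma adjusted p = 0.000313). The Slc2a3 call was lost under quantile normalization (-0.20, limma adjusted p = 0.277), where the count was 0 and 1.21% of all peaks were called. The Hk2 call was lost in 9 alternatives, with values from 0.51 to 0.73.

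The Zfp219 difference changed with age at 16 member peaks, 9.14% against 9.11% of all peaks. The largest were at P4ha1 (chr10:59309001-59309431, 1.61 ± 0.50, limma adjusted p = 0.0258), Ldha (chr7:46833384-46833866, 1.42 ± 0.43, limma adjusted p = 0.0211), Hif1a (chr12:73850680-73851397, 1.11 ± 0.36, limma adjusted p = 0.0322), Bhlhe40 (chr6:108704381-108705105, -1.02 ± 0.21, limma adjusted p = 0.000283) and Pdk1 (chr2:71866322-71867035, 0.95 ± 0.31, limma adjusted p = 0.0356). The Bhlhe40 call held in every alternative, while those at P4ha1, Ldha, Hif1a and Pdk1 were lost in 10, 2, 8 and 11.

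The Dusp5 difference changed with age at 8 member peaks (4.57%, against 4.0% of all peaks), and at 2 to 10 when 1 library was left out. The largest were at the same Ldha peak (1.36 ± 0.43, limma adjusted p = 0.049), Pfkfb4 (chr9:109023062-109023727, 1.27 ± 0.39, limma adjusted p = 0.0464), the Bhlhe41 lead peak (0.79 ± 0.19, limma adjusted p = 0.00656), the same Bhlhe40 peak (-0.74 ± 0.21, limma adjusted p = 0.0214) and Ddit4 (chr10:59938499-59939555, 0.46 ± 0.14, limma adjusted p = 0.039). The Bhlhe41 and Bhlhe40 calls were each lost in 1 alternative, without aged Dusp5 Tprog replicate 2 (0.62 and -0.66); those at Ldha, Pfkfb4 and Ddit4 were lost in 25, 20 and 15. Both guides share the OTC libraries.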

How the results depend on the processing

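Of 227 named peak results, 85 stayed called under every alternative, 158 under every one other than leaving out a library, and 0 reversed. With gene body peaks only, fewer peaks enter, and called member peaks were 16 for aged and 22 for young Tprog against Tterm, 5 for Ttad against Tprog, 1 for aged and 6 for young Ttran against Tterm, 37 for age, 1 for state by age, 16 for aged and 8 for young Zfp219, 11 for aged Dusp5, 4 for Zfp219 by age, 1 for Dusp5 by age and 4 for Zfp219 in Ttad. Those gene body counts are of 101 member peaks, with no share over all gene body peaks beside them. The share of all peaks called moved with the next settings too and is given in brackets. Under quantile normalization Ttad against Tprog gave 1 (5.22%), state by age 0 (1.21%), young Zfp219 12 (5.41%) and aged Dusp5 14 (8.92%). With the compared groups alone, aged Ttran against Tterm gave 1 (1.16%), state by age 5 (4.38%), aged Dusp5 14 (9.23%) and Dusp5 in Ttad 1 (0.314%). By edgeR aged Ttran against Tterm gave 2 (2.82%) and state by age 4 (3.2%). The cause of these shifts was not tested.

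Leaving out 1 library gave 14 to 19 calls for aged Tprog against Tterm, 23 to 36 for young, 1 to 5 for Ttad against Tterm, 0 to 7 for Ttad against Tprog, 0 to 3 for aged and 6 to 11 for young Ttran against Tterm, 54 to 69 for age, 1 to 2 for state by age, 33 to 42 for aged and 10 to 21 for young Zfp219, 15 to 23 for aged and 3 to 9 for young Dusp5, 9 to 18 for Zfp219 by age, 2 to 10 for Dusp5 by age, and 2 to 9 for each guide in Ttad. Where an arm kept 1 library, its spread was taken from the other groups. These leave-one-out counts have no share over all peaks beside them, so a shift of the whole series is not separated from one of the members.

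The replicate numbers were not treated as pairing the libraries. Deviations of same-numbered libraries correlated at -0.018 to 0.017 over all peaks, so no large shared shift was seen. That cannot show whether same-numbered pools came from the same mice, which is not given. With a replicate block, young Tprog against Tterm gave 39 calls in place of 40, and the Hk2 peak 26.2 kb from the start was lost there (-0.59, limma adjusted p = 0.0546).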
